A study of Mus musculus with 686 samples.

Results

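The erythroid microRNAs described here are mmu-miR-451a, mmu-miR-144-3p, mmu-miR-144-5p and mmu-miR-486a-5p, 4 of the 1964 miRNA rows of a small RNA atlas of spaceflight in mice. They were chosen by name, as miRNAs known to be abundant in red blood cells, with no threshold on a measured value. The atlas holds 686 small RNA libraries, each made from 1 tissue of 1 female BALB/cAnNTac mouse, and covers 13 tissues of 83 mice. The mice were 3 or 8 months old and belonged to 3 arms: spaceflight (FL), a habitat ground control (HGC) in flight hardware with matched temperature, humidity and carbon dioxide, and a vivarium ground control (VGC) in standard cages. All arms ate the same NASA food bars, on which mold was found before launch in FL and HGC. The 348 live animal return (LAR) libraries came from FL mice that spent 39.5 days on the International Space Station and were collected 2 to 4 days after splashdown, and from ground controls collected alongside. The 338 TERM libraries came from mice ended on orbit, or on Earth for the controls, 22 to 24 days after launch. Brain in LAR and pancreas in TERM had mice of 3 months only. Every mouse was bled by cardiac puncture at death. LAR organs were frozen at dissection, whereas TERM spleens were placed fresh in RNAlater and the other TERM organs were taken later from frozen and thawed carcasses.

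miR-144 and miR-451a lie side by side in the genome and are made from one primary transcript that GATA1, the master transcription factor of red cell development, switches on. Most miRNA hairpins are cut by Dicer, whereas the miR-451a hairpin is too short for Dicer and is cut by the slicer protein Ago2. miR-486 lies in an intron of Ank1, the gene of the red cell membrane protein ankyrin, and is known in both red cells and striated muscle. Mature red cells lack a nucleus but keep these miRNAs, so their level in a solid organ is often read together with the blood left in it. The mouse spleen stores and clears red cells and, unlike the human spleen, also makes them in adult life. In bulk tissue, fewer red cells and less of a miRNA per red cell cannot be told apart.

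The mature sequences of 3 of the 4 members were matched by name in RefSeq tables of build GRCm38.p6. They are shown because the seed, the stretch that pairs with target mRNAs, shows that the members of the cluster are not one family. Capitals mark the seed (bases 2 to 8).
mmu-miR-451a: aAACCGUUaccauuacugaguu
mmu-miR-144-3p: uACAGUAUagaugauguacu
mmu-miR-144-5p: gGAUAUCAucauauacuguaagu
No seed was shared. All 3 lay on the plus strand of chromosome 11, mmu-miR-451a at chr11:78073186-78073207, mmu-miR-144-3p at chr11:78073047-78073066 and mmu-miR-144-5p at chr11:78073010-78073032. mmu-miR-486a-5p is named only.

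The hairpins are shown for the place of the mature miRNA within them, with the mature bases in capitals.
Mir451a: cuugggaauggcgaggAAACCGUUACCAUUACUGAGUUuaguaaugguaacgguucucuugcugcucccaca
Mir144: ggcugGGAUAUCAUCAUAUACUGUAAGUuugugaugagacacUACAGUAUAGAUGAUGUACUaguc
The Mir451a hairpin is 72 bases long (chr11:78073170-78073241) and the Mir144 hairpin 66 bases (chr11:78073005-78073070), with 99 bases between them. In a minimum free energy fold made with RNAfold, the 22 bases of mature miR-451a held 17 bases paired on the 5′ side and all 4 bases of the loop. By contrast, mature miR-144-5p and miR-144-3p held 0 bases of their loop, with 20 and 19 bases paired on the 5′ and the 3′ side of the stem.

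Levels are given in CPM, which are counts-per-million of the miRNA counts of the same library, so a level is a share and falls when other miRNAs rise. Each library held 181393 to 30469295 miRNA counts, with a median of 3875781. mmu-miR-451a had at least 1114 counts in every library, while mmu-miR-144-5p had a median of 83.5 counts and mmu-miR-486a-5p of 187. mmu-miR-144-5p had 0 counts in 2 libraries, FL mouse 2 of TERM pancreas and FL mouse 1 of TERM thymus, where a count of 0 allows a level of up to 8.81 and 0.479 CPM (3 counts, counting error only). The row of mmu-miR-486b-5p ran at a median of 0.994 times that of mmu-miR-486a-5p and held the same counts in 232 libraries, so counts of both rows cannot be assigned to 1 precursor. mmu-miR-451b had 9 counts in all.

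Some libraries went against their tissue label. Judged by 723 miRNAs, with the members and their precursors left out, 167 of the 686 libraries (24.3%) resembled another tissue more than their own. These were 47 of 57 libraries of mesenteric adipose tissue (MAT), 20 of 60 of brown adipose tissue (BAT), 19 of 59 of diaphragm, 15 of 58 of subcutaneous adipose tissue (SCAT), 12 of 58 of lung, 10 of 50 of heart, 10 of 57 of kidney, 9 of 58 of thymus, 7 of 47 of spleen, 7 of 58 of liver, 7 of 60 of gonadal adipose tissue (GAT), 4 of 39 of pancreas and 0 of 25 of brain. Of the 167, 120 lay in 11 of the 44 sequencing pools. No margin was set, so weak and near matches counted too. The best correlation had a median of 0.808, against 0.126 with the own tissue, but was 0.268 in VGC mouse 3 of LAR lung. FL mouse 2 of LAR SCAT had 0.582 with GAT and 0.572 with SCAT. Each tissue profile was the median of all libraries of that label, these included. Defining markers followed the labels in the median brain and liver library, with 226084 CPM of brain miRNAs (miR-124-3p and miR-9-5p) in LAR brain and 319656 of miR-122-5p in LAR liver. They did not in MAT, where the median LAR library held 8063 CPM of the pancreas miRNA miR-216a-5p and the median TERM library 56372 of the lymphocyte miRNA miR-150-5p, against 38408 of it in TERM spleen. Where leaving out the libraries of another profile changed a printed call, an order at the top or a printed median by more than 1.5 times, both values are given. Other changes in calls are given as counts.

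miR-451a was abundant in every tissue and lowest in brain. In LAR its median level was 2797 CPM in brain (1373 to 15840, n = 12), 18898 in SCAT (8542 to 113232, n = 29), 19497 in diaphragm (5035 to 86945, n = 30) and 22039 in MAT (6917 to 81907, n = 28). It was 22236 in GAT (8048 to 69833, n = 30), 23272 in BAT (10399 to 187054, n = 30), 25813 in pancreas (13530 to 68317, n = 28) and 32584 in liver (15906 to 100834, n = 29). It reached 36755 in thymus (18480 to 145071, n = 30), 38442 in kidney (21774 to 108076, n = 29), 38629 in heart (21415 to 273715, n = 22), 74928 in lung (11922 to 172065, n = 30) and 76139 in spleen (3474 to 156245, n = 21). Brain was lowest and spleen highest, 27.2-fold apart in their medians, and the ranges of the tissues between them overlapped widely. Without the libraries of another profile lung was highest in LAR, at a median of 77879 CPM (n = 26) against 77020 in spleen (n = 19), so the order of these 2 tissues turned. In the median LAR spleen library 7.61% of all miRNA counts were miR-451a, which made it the most abundant miRNA of that tissue.

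In TERM the same miRNA ran from a median of 4353 CPM in brain (1861 to 10536, n = 13) to 127909 in spleen (7096 to 289097, n = 26), 29.4-fold apart. Between these lay SCAT at 16818, pancreas at 19102, thymus at 19413, MAT at 20659, diaphragm at 23508, GAT at 28879, BAT at 31317, liver at 32576, kidney at 43003, lung at 83629 and heart at 105888. Heart stood next to spleen in TERM, and miR-451a took 10.6% of the miRNA counts of the median TERM heart library and 12.8% of the median TERM spleen library. The order of the 13 tissue medians in LAR and TERM had a Spearman correlation of 0.83.

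Both arms of miR-144 followed a similar order at far lower levels, with heart lower in the LAR order of mmu-miR-144-3p than in that of miR-451a, and liver higher. mmu-miR-144-3p, the arm best known as the functional strand, had a median of 16.8 CPM in LAR brain (9.50 to 109) and 633 in LAR spleen (30.3 to 3429), and of 30.1 and 1164 in TERM. The other LAR medians were 120 in SCAT, 149 in diaphragm, 163 in BAT, 201 in GAT, 202 in pancreas, 204 in MAT, 210 in heart, 300 in thymus, 313 in kidney, 347 in liver and 413 in lung. mmu-miR-144-5p had a median of 1.95 CPM in LAR brain (0.584 to 10.9) and 78.2 in LAR spleen (1.62 to 222), with LAR heart at 36.3, kidney at 40.0 and lung at 40.2. In TERM heart carried the highest median of mmu-miR-144-5p, 118 CPM (22.6 to 230, n = 28), beside 116 in spleen (5.85 to 293, n = 26), and these ranges overlapped almost fully. Without the libraries of another profile this order turned, with 137 CPM in spleen (n = 21) and 120 in heart (n = 23). The medians of highest and lowest tissue were 37.7-fold (LAR) and 38.7-fold (TERM) apart for mmu-miR-144-3p, and 40.2-fold and 36.6-fold apart for mmu-miR-144-5p.

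**Figure D1:**
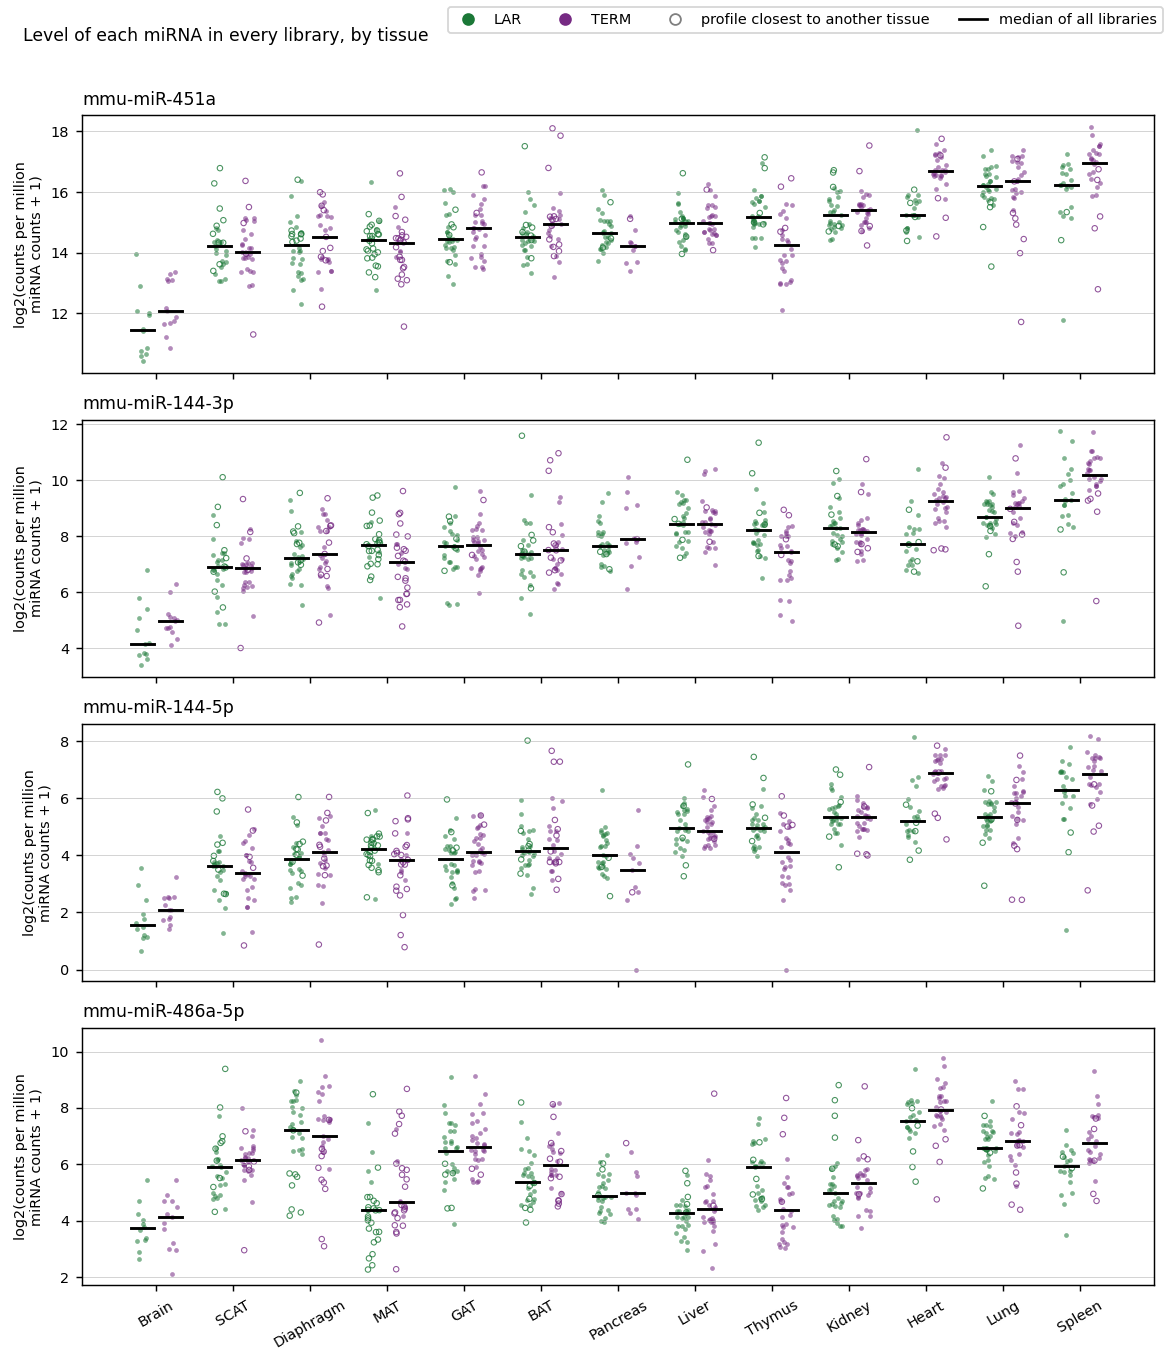
Level of each member in every library, as log2 of CPM plus 1, by tissue in the order of the LAR medians of miR-451a; green points are LAR, purple points TERM, open points libraries whose profile was closest to another tissue, and black bars the medians of all libraries. Brain sits lowest for all 4 members, spleen and lung are high for miR-451a and both arms of miR-144, and heart and diaphragm are high for mmu-miR-486a-5p.

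mmu-miR-486a-5p had another order, with striated muscle on top. Its LAR medians were 12.3 CPM in brain (5.19 to 42.3), 18.2 in liver (6.78 to 53.6), 19.7 in MAT, 28.2 in pancreas, 30.3 in kidney, 40.3 in BAT, 59.0 in SCAT, 59.2 in thymus, 59.7 in spleen (10.3 to 148), 89.0 in GAT, 94.7 in lung (34.4 to 302), 149 in diaphragm (17.1 to 500) and 186 in heart (40.8 to 663). In TERM they ran from 16.6 in brain to 127 in diaphragm and 242 in heart. Heart and brain medians were 15.2-fold apart in LAR and 14.5-fold in TERM, and spleen, the tissue with the most miR-451a, was 9 of 13 from the lowest in LAR and 10 of 13 in TERM. Without the libraries of another profile, the median of mmu-miR-486a-5p in LAR MAT moved from 19.7 to 69.7 (4 libraries left) and that in TERM diaphragm from 127 to 192. Of the 104 medians of the 4 members, these were the 2 that moved by more than 1.5 times.

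Few neighbours in these orders were separable. Over 48 pairs of neighbouring tissues in each of LAR and TERM, a 2-sided permutation test on log2 levels with 100000 resamples, adjusted by Benjamini-Hochberg within LAR and within TERM, separated 5 pairs in each. In LAR these were brain below SCAT for miR-451a and both arms of miR-144 (permutation test, adjusted p = 0.00016 for each), heart below lung for miR-451a (permutation test, adjusted p = 0.0097) and MAT below liver for mmu-miR-144-5p (permutation test, adjusted p = 0.00132). In TERM they were brain below SCAT for the same 3 members, heart below spleen for mmu-miR-144-3p (permutation test, adjusted p = 0.0229) and lung below spleen for mmu-miR-144-5p (permutation test, adjusted p = 0.018). No neighbours were separated for mmu-miR-486a-5p, so its order between adjacent tissues was within the spread of the libraries. Without the libraries of another profile, 8 pairs were separated in LAR and 8 in TERM, 4 of them for mmu-miR-486a-5p.

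The ratio of miR-451a to its cluster partner varied less between tissues than its ratio to mmu-miR-486a-5p. miR-451a exceeded mmu-miR-144-3p in 686 of 686 libraries, with a median ratio of 134 (14.9 to 421), although ligation favours some sequences and such ratios are not molar. The tissue medians of this ratio ranged in LAR from 86.9 in liver to 195 in heart. mmu-miR-144-3p exceeded mmu-miR-144-5p in 684 of the 684 libraries with a count of both, with a median ratio of 10.1. That ratio was lowest in heart, at a median of 4.73 in LAR and 4.71 in TERM, against LAR medians of 7.33 in kidney to 13.7 in GAT for the other tissues. It was highest in TERM pancreas, at 27.2. The ratio of miR-451a to mmu-miR-486a-5p had LAR medians of 135 in diaphragm, 251 in heart, 1274 in spleen and 1829 in liver.

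**Figure D2:**
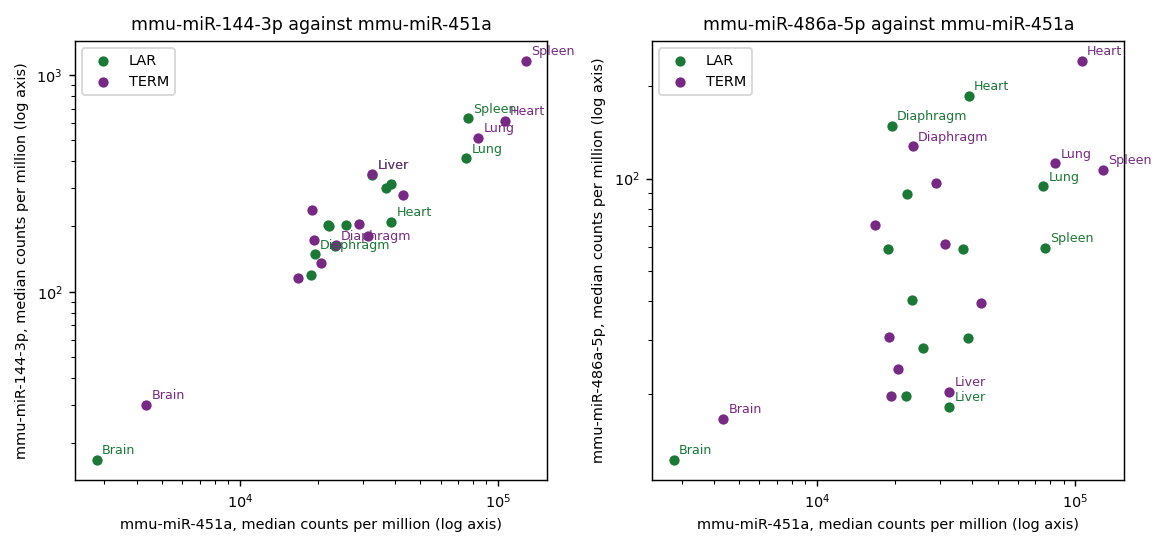
Tissue medians of mmu-miR-144-3p (left) and mmu-miR-486a-5p (right) against those of miR-451a, in CPM on log axes, 13 tissues each for LAR (green) and TERM (purple). The miR-144-3p points follow miR-451a from brain to spleen, whereas for mmu-miR-486a-5p heart and diaphragm lie high and liver lies low at similar levels of miR-451a.

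Across the 13 LAR tissue medians, miR-451a had a Spearman correlation of 0.96 with mmu-miR-144-5p, 0.91 with mmu-miR-144-3p and 0.38 with mmu-miR-486a-5p. The points are medians that share libraries and a denominator, so these values are a description. Among 603 miRNAs, the 5 most like miR-451a were mmu-miR-144-5p, mmu-miR-144-3p, mmu-miR-30b-3p (0.85), mmu-miR-30d-3p (0.81) and mmu-miR-106b-5p (0.77). mmu-miR-30d-3p and mmu-miR-106b-5p were also among the 5 most like each arm of miR-144, with mmu-miR-140-5p (0.82) for mmu-miR-144-3p and mmu-miR-30b-3p (0.87) for mmu-miR-144-5p. The 5 most like mmu-miR-486a-5p were mmu-miR-486b-5p (1.00), mmu-miR-486b-3p (0.91), mmu-miR-486a-3p (0.88), mmu-miR-214-3p (0.84) and mmu-miR-1943-5p (0.78). mmu-miR-486a-3p exceeded its partner arm most in diaphragm, where the median ratio of 3p to 5p was 4.44 in LAR and 3.42 in TERM, against 0.994 in LAR liver and 1.05 in LAR spleen.

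Within most tissues, libraries with more miR-451a also had more miR-144. Over libraries, Pearson's r of the log2 levels with miR-451a ranged over the 13 LAR tissues from 0.59 to 0.94 for mmu-miR-144-5p (median 0.85) and from 0.17 to 0.91 for mmu-miR-144-3p (median 0.79), and passed the permutation test in 13 and 12 tissues after adjustment over 78 relations. For mmu-miR-486a-5p it ranged from -0.10 in diaphragm to 0.80 in spleen (median 0.44) and passed in 7 tissues. By the same limit on the unadjusted p, 14.4% of all miRNA and tissue pairs with a mean of at least 10 CPM in the tissue correlated positively with miR-451a in LAR. Over the libraries with their own tissue's profile, r in the 12 LAR tissues with more than 5 such libraries ranged from 0.61 to 0.94 for mmu-miR-144-5p, from 0.44 to 0.87 for mmu-miR-144-3p and from -0.18 to 0.88 for mmu-miR-486a-5p. All these levels share the total of their library as denominator. In LAR spleen (n = 21), r was 0.94 and Spearman's rho 0.81 for mmu-miR-144-5p (permutation test, adjusted p = 2.3e-05 and 8.1e-05), and r was 0.80 without the 2 libraries farthest from the median. In TERM spleen (n = 26) the r of 0.83 for mmu-miR-144-3p fell to 0.35 over the 21 libraries with a spleen profile, so that relation rested largely on the other 5. Over profile-matched libraries of the 13 TERM tissues, r ranged from 0.34 to 0.95 for mmu-miR-144-5p and from 0.13 to 0.91 for mmu-miR-144-3p. For mmu-miR-144-3p it fell from 0.65 to 0.13 in kidney, from 0.72 to 0.31 in heart and from 0.86 to 0.45 in lung. In GAT it stayed at 0.85.

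To place each tissue against the others, an edgeR model over all libraries of LAR or TERM, with arm as a term, set each tissue against the mean of the other 12. Of 52 tests of members, 40 passed an adjusted p of 0.05 in LAR (23 higher and 17 lower) and 39 in TERM (19 higher and 20 lower). Over all miRNAs 58.3% of tests passed in LAR and 54.4% in TERM, so most tests of miRNAs passed. Without the libraries of another profile, 33 tests of members passed in LAR and 41 in TERM, and the calls described here for brain, spleen, heart, diaphragm, liver and lung all passed. Brain was lower in all 4 members, by a log2 difference of -3.40 ± 0.32 (SE) for miR-451a in LAR and -3.15 ± 0.35 in TERM, and of -2.54 ± 0.43 and -2.60 ± 0.45 for mmu-miR-486a-5p. Spleen was higher for miR-451a (1.17 ± 0.16 in LAR, 1.88 ± 0.16 in TERM), mmu-miR-144-3p (1.68 ± 0.19 and 2.23 ± 0.17) and mmu-miR-144-5p (1.72 ± 0.18 and 2.23 ± 0.18). For mmu-miR-486a-5p the log2 difference of spleen was -0.23 ± 0.27 in LAR, which did not pass (adjusted p = 0.464), and 0.79 ± 0.23 in TERM, which did (adjusted p = 0.00173).

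Heart was higher in every member in both sets, with miR-451a at 1.40 ± 0.16 in LAR and 2.28 ± 0.15 in TERM, mmu-miR-144-5p at 1.81 ± 0.18 and 2.87 ± 0.17, and mmu-miR-486a-5p at 2.46 ± 0.20 and 2.58 ± 0.19 (log2, SE). Whole hearts were homogenized. Diaphragm was higher for mmu-miR-486a-5p alone (2.20 ± 0.18 in LAR and 1.76 ± 0.21 in TERM), its log2 differences for the other 3 members lying between -0.35 and -0.08. The summed level of 5 striated muscle miRNAs was likewise high there, at a LAR median of 362471 CPM in diaphragm and 286018 in heart against 1025 in spleen. Liver, in contrast, was higher in mmu-miR-144-3p (1.45 ± 0.17 in LAR) and lower in mmu-miR-486a-5p (-1.19 ± 0.25). Lung was higher in all 4 members in both sets.

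The flight comparison asks whether FL mice differ from HGC mice, which shared their housing, and it was made in each tissue with edgeR and adjusted over all miRNAs. In LAR 1 of 52 tests of members passed, against 1.67% of the tests of all miRNAs, and 8 had an unadjusted p under 0.05; DESeq2 called 3. In TERM edgeR called 0 of 52, against 0.492% of all tests, with 2 at an unadjusted p under 0.05 and 0 called by DESeq2. Against VGC, which differs in housing as well, edgeR called 0 in LAR (all miRNAs 0.663%) and 0 in TERM (0.666%), with 13 and 5 at an unadjusted p under 0.05 and 0 in both by DESeq2. FL is the same set of libraries in both comparisons. The log2 differences of FL against HGC ran from -2.34 to 1.31 in LAR and from -1.42 to 1.08 in TERM, with median standard errors of 0.42 and 0.46.

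**Figure D3:**
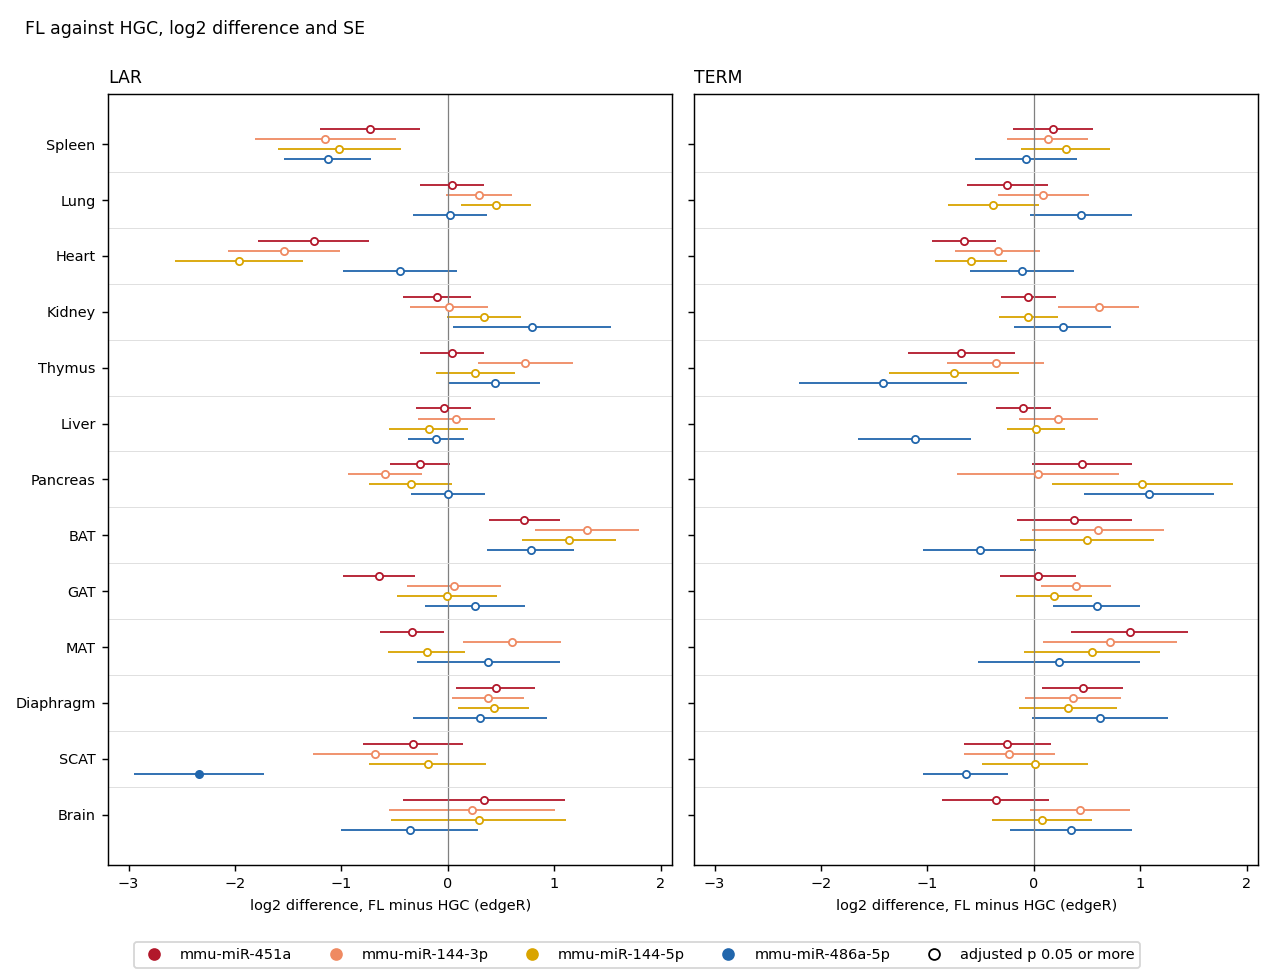
Log2 difference between FL and HGC with its standard error (bars, edgeR) for each member in each tissue, LAR on the left and TERM on the right. The 1 filled point, mmu-miR-486a-5p in LAR SCAT, is the single test with an adjusted p under 0.05, and in LAR spleen all 4 points lie below 0.

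In LAR spleen every member was lower in FL in its median, and none passed the test. The level of miR-451a in the 6 FL mice was 36099, 37560 and 41698 CPM at 3 months and 75816, 76139 and 77020 at 8 months. The 6 HGC mice gave 80379, 87043 and 109877 at 3 months and 21805, 72752 and 122533 at 8 months, the 21805 being a library with a BAT profile. The 9 VGC mice gave 3474, 41437, 46874 and 125127 at 3 months, of which the 41437 had a lung profile, and 70746, 99934, 101294, 116344 and 156245 at 8 months. At 3 months all FL spleens lay below all HGC spleens, at 8 months the arms overlapped, and VGC overlapped both. Of the 392 miRNAs with a mean of at least 10 CPM in LAR spleen, 22 (5.61%) had all 3-month FL values below all HGC values. FL against HGC gave a log2 difference of -0.73 ± 0.47 (adjusted p = 0.679), and FL against VGC -0.72 ± 0.43 (adjusted p = 0.691).

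The other members showed the same order at 3 months. mmu-miR-486a-5p was 23.1, 29.5 and 30.5 CPM in FL and 53.3, 59.7 and 102 in HGC at 3 months, and 40.3, 52.8 and 61.7 in FL and 52.0, 57.3 and 84.0 in HGC at 8 months. Its VGC levels were 10.3 to 148 (median 76.3). mmu-miR-144-5p was 37.7, 38.1 and 67.4 in FL and 119, 146 and 222 in HGC at 3 months. At that age all FL values of both lay below all HGC values, and mmu-miR-144-3p, at 324 to 644 in FL and 1029 to 3429 in HGC, did not overlap either. All 4 members are thus among those 22 miRNAs, and they share the same 6 libraries. With age at 3 months alone, edgeR gave log2 differences of -1.35, -2.13, -1.86 and -1.46 for miR-451a, mmu-miR-144-3p, mmu-miR-144-5p and mmu-miR-486a-5p, none of which passed (adjusted p = 0.998 for each). At 8 months the arms overlapped for all members, mmu-miR-144-3p being 346, 891 and 924 CPM in FL and 104, 605 and 744 in HGC, and mmu-miR-144-5p 67.2, 73.6 and 85.1 in FL and 16.3, 56.0 and 102 in HGC. The log2 differences at 8 months were -0.35, 0.27, -0.03 and -1.14 in the same order of members, and none passed (adjusted p from 0.453 to 0.995). Over both ages the log2 differences of mmu-miR-486a-5p were -1.13 ± 0.41 against HGC (p = 0.0105, adjusted p = 0.275) and -1.11 ± 0.38 against VGC (p = 0.00785, adjusted p = 0.44) by edgeR. mmu-miR-144-3p gave -1.15 ± 0.66 and mmu-miR-144-5p -1.02 ± 0.58 against HGC (adjusted p = 0.674 for both).

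These spleen values depended on which libraries were kept. Without the 4 of 21 LAR spleen libraries that lay in the affected pools (1 of HGC and 3 of VGC, none of FL), FL against VGC passed for miR-451a (-1.07 ± 0.23, adjusted p = 0.0287) and mmu-miR-486a-5p (-1.26 ± 0.26, adjusted p = 0.0259), in a fit that called 1.29% of all miRNAs, while FL against HGC did not (-0.85 ± 0.24 and -0.92 ± 0.27, adjusted p = 0.178 for both). The 3 VGC libraries so left out were all of 3-month mice, which left 1 VGC spleen of that age beside 5 of 8 months, against 3 and 3 in FL, so age and arm were unbalanced in that comparison. Without only the 2 libraries of another profile, neither comparison passed for any member. The library of VGC mouse 13, with the 3474 above, matched the spleen profile but lay in such a pool. Leaving out each library in turn gave -0.84 to -0.63 for miR-451a and -1.31 to -0.92 for mmu-miR-486a-5p against HGC, and no such set passed. It gave -1.35 to -0.44 for mmu-miR-144-3p and -1.19 to -0.69 for mmu-miR-144-5p, the -0.44 being the value without HGC mouse 13, which held the 3429 of mmu-miR-144-3p. The white blood cell miRNAs, which mark the rest of the spleen, had a median log2 difference of 0.18 against HGC over 4 rows with 0 called, and 9 other red cell rich miRNAs such as miR-16-5p had 0.08 with 0 called. These 9 did not all follow miR-451a across tissues, miR-182-5p having a LAR median of 2624 CPM in pancreas and 22.7 in spleen. Striated muscle miRNAs had a median of -2.60 over the 4 of 5 tested, with 0 called, and a summed level of 424 to 16816 CPM in FL, 384 to 67875 in HGC and 323 to 17510 in VGC; their part in the result was not tested.

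**Figure D4:**
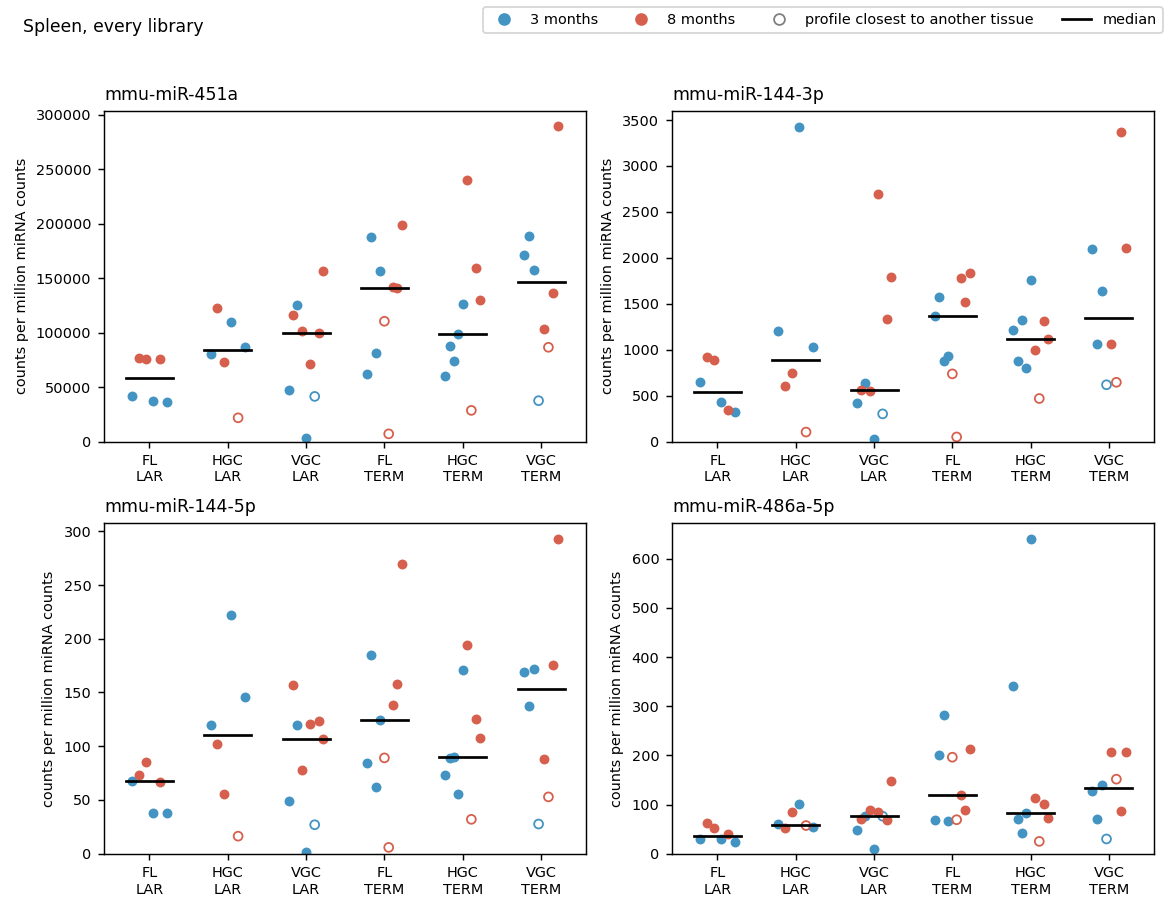
CPM of each member in every spleen library, by arm in LAR and TERM, blue for 3 months and red for 8 months, open for libraries whose profile was closest to another tissue, with black bars at the medians. In LAR the FL values of miR-451a lie between 36099 and 77020 and the HGC and VGC values reach 122533 and 156245; in TERM the arms overlap.

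TERM spleen did not show this order. The medians of miR-451a were 140857 CPM in FL (7096 to 198451, n = 9), 98434 in HGC (28614 to 240340, n = 9) and 146866 in VGC (37516 to 289097, n = 8), and the arms overlapped. FL against HGC gave log2 differences of 0.18 ± 0.38 for miR-451a, 0.13 ± 0.38 and 0.30 ± 0.42 for both arms of miR-144 and -0.07 ± 0.48 for mmu-miR-486a-5p (edgeR, adjusted p = 0.991 for each). The test of the difference between LAR and TERM in the flight effect gave -1.0 ± 0.63 for miR-451a in spleen and did not pass (adjusted p = 0.61). Over all tissues it called 0 of 52 members, against 1.67% of all tests, with 4 at an unadjusted p under 0.05 and 0 by DESeq2.

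In LAR heart no member passed the threshold for FL against HGC, and the size of the difference rested on 1 HGC library. miR-451a levels were 21415 to 61301 CPM in FL (median 33671, n = 6), 38526 to 273715 in HGC (median 54296, n = 6) and 23464 to 61591 in VGC (median 37835, n = 10). The HGC median stood above both others, and the arms overlapped. The highest HGC value came from mouse 16, whose library had a heart profile, against 69206 in the next HGC heart. The log2 differences of FL against HGC were -1.26 ± 0.52 for miR-451a, -1.54 ± 0.53 for mmu-miR-144-3p and -1.96 ± 0.60 for mmu-miR-144-5p (adjusted p = 0.226, 0.197 and 0.149), and -0.45 ± 0.54 for mmu-miR-486a-5p (0.733). Without the 5 LAR heart libraries of another profile the first 3 were -1.32, -1.76 and -2.04 and did not pass. DESeq2 called mmu-miR-144-5p (adjusted p = 0.0291). Without HGC mouse 16, however, edgeR gave -0.11 ± 0.33 for miR-451a, -0.71 ± 0.43 for mmu-miR-144-3p, -0.97 ± 0.48 for mmu-miR-144-5p and 0.20 ± 0.50 for mmu-miR-486a-5p (adjusted p = 0.942, 0.447, 0.358 and 0.927). With the mouse number as a block, which did not pair the arms, miR-451a was at -0.78 ± 0.51 (adjusted p = 0.54). Its difference in medians, beside the rank-sum test, was -0.70 (adjusted p = 0.332). Against VGC the FL differences were 0.23 ± 0.45, 0.14 ± 0.46 and -0.47 ± 0.53, and HGC against VGC gave 1.5 ± 0.45, 1.68 ± 0.45 and 1.49 ± 0.51 (adjusted p = 0.112, 0.112 and 0.126). The 9 other red cell rich miRNAs had a median log2 difference of -1.48 for FL against HGC with 0 called, and summed to 6537 to 13713 CPM in FL, 9992 to 45204 in HGC and 7663 to 22568 in VGC; their part in the result was not tested.

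In LAR BAT the members leaned the other way. mmu-miR-144-3p was 99.5 to 3082 CPM in FL (median 201, n = 10), 36.7 to 713 in HGC (median 99.8, n = 10) and 91.4 to 353 in VGC (median 178, n = 10), with overlap between all arms. The 3082 came from a library with a spleen profile. FL against HGC gave 1.31 ± 0.49 (edgeR, adjusted p = 0.0787), which DESeq2 called (adjusted p = 0.042), and 0.72 ± 0.33 for miR-451a (adjusted p = 0.145). Without the 7 LAR BAT libraries of another profile these were 0.33 ± 0.44 and 0.26 ± 0.31. White blood cell miRNAs moved with them, miR-142a-3p being called higher in FL by 3.02 and miR-142a-5p by 2.02 on the log2 scale (2 of 4 listed), with a summed level of 1829 to 59936 CPM in FL and 4064 to 8482 in HGC. Markers of other organs were also called, the liver miRNA miR-122-5p being called higher in FL by 6.11, miR-192-5p, which was abundant in both liver and kidney here, higher by 4.87 and the brain miRNA miR-124-3p lower by -6.39, whereas 0 of the 9 other red cell rich miRNAs were called (median 0.62). The part of these in the result was not tested.

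The 1 call in the flight comparison was mmu-miR-486a-5p in LAR SCAT. Its level was 18.9 to 112 CPM in FL (median 35.6, n = 9), 26.5 to 668 in HGC (median 71.8, n = 10) and 20.3 to 258 in VGC (median 61.5, n = 10). FL was lower in its median and the arms overlapped. The log2 difference from HGC was -2.34 ± 0.61 (edgeR, adjusted p = 0.0214), in a fit that called 7.65% of all miRNAs. The other rows of the miR-486 precursors were called lower too, miR-486a-3p by -2.25, miR-486b-5p by -2.31 and miR-486b-3p by -2.59. The cluster members gave -0.33 ± 0.47, -0.68 ± 0.59 and -0.19 ± 0.55 and were not called. Of the 9 other red cell rich miRNAs 1 was called, miR-363-3p, higher in FL by 1.40, and their median was 0.21.

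Striated muscle miRNAs moved with it in SCAT. All 4 of the 5 listed that were tested were called lower in FL, miR-1a-3p by -2.62, miR-133a-3p by -3.77, miR-206-3p by -3.44 and miR-499-5p by -3.20 on the log2 scale. Their summed level was 2721 to 61117 CPM in FL, 86576 to 541759 in HGC and 4190 to 246858 in VGC. The part of muscle in the result was not tested. The call was absent without libraries of another profile (10 of 29 SCAT libraries, -1.27 ± 0.51, edgeR, adjusted p = 0.282) and without the affected pools (adjusted p = 0.192). Nor did it pass with plate as a term (adjusted p = 0.243) or with the mouse number as a block (adjusted p = 0.121), a number that did not pair the arms. A rank-sum test did not call it either. That test called mmu-miR-144-5p higher in FL (log2 0.54, adjusted p = 0.046), against the edgeR difference of -0.19 above. The call of mmu-miR-486a-5p was also absent without FL mouse 2 or HGC mouse 11, the latter a library with a diaphragm profile and the highest level, 668 (adjusted p from 0.0143 to 0.0804 over the libraries left out in turn, log2 difference -2.59 to -1.36).

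Housing alone, HGC against VGC, gave 0 calls of 52 in LAR (0.187% of all tests) and 0 in TERM (0.391%) by edgeR, with 9 and 5 at an unadjusted p under 0.05. DESeq2 called 2 in LAR, miR-451a (1.46 ± 0.45, adjusted p = 0.0458) and mmu-miR-144-3p (1.63 ± 0.46, adjusted p = 0.024) in heart, and 0 in TERM. The HGC group included mouse 16, whose heart held 273715 CPM of miR-451a against 69206 in the next highest HGC heart.

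Brain had the lowest levels of all 4 members. In LAR miR-451a was 2865, 3910, 4104 and 4360 CPM in FL, 1524, 1727, 1832 and 7713 in HGC and 1373, 1621, 2729 and 15840 in VGC. FL spanned a narrow range inside the wider ranges of both controls, each of which held 1 high library. FL against HGC gave 0.34 ± 0.76 (log2, SE; adjusted p = 0.994).

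Age was compared with arm as a term in the 12 tissues of each set with both ages. In LAR edgeR called 0 of 48 tests of members at 8 against 3 months (0.0426% of all tests), with 6 at an unadjusted p under 0.05 and 0 by DESeq2. In TERM it called 1 of 48 (2.17% of all tests), with 10 at an unadjusted p under 0.05. The members' log2 differences had medians of 0.26 in LAR and 0.40 in TERM, where the medians over all miRNAs of a tissue lay between -0.15 and 0.07 in LAR and between -0.11 and 0.17 in TERM. The change of the flight effect with age in LAR gave 0 calls of 48 (0.128% of all tests), 9 at an unadjusted p under 0.05 and 0 by DESeq2, and in LAR spleen it was 1.00 ± 0.91 for miR-451a and 2.40 ± 1.09 for mmu-miR-144-3p (adjusted p = 0.996 and 0.806). In SCAT and BAT it was below 0, at -2.41 ± 0.74 and -3.11 ± 0.99 in SCAT (p = 0.00296 and 0.00377, adjusted p = 0.455 for both) and -1.42 ± 0.66 and -2.43 ± 0.96 in BAT (adjusted p = 0.292 and 0.241) for the same 2 members. With the libraries of another profile left out these were -0.54 ± 0.50 and -1.40 ± 0.82 in SCAT (adjusted p = 0.979 for both) and to -0.62 ± 0.59 and -1.14 ± 0.83 in BAT (adjusted p = 0.925 for both), and in spleen they were 0.79 ± 0.97 and 2.05 ± 1.14 (adjusted p = 0.999 for both).

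The call was mmu-miR-486a-5p in TERM thymus. Its level was 7.16 to 39.7 CPM at 3 months (median 12.7, n = 13) and 11.1 to 326 at 8 months (median 30.3, n = 15), with overlap. The log2 difference was 2.51 ± 0.56 (edgeR, adjusted p = 0.016), in a fit that called 1.69% of all miRNAs. miR-451a gave 1.25 ± 0.36 (adjusted p = 0.0555), with medians of 12799 at 3 and 24814 at 8 months, and DESeq2 called it (adjusted p = 0.0178). Of 5 striated muscle miRNAs 1 was called higher, miR-499-5p by 5.65, and their summed level reached 277113 CPM in an HGC thymus and 356911 in a VGC thymus against medians of 2091 to 6656 in the 3 arms; the part of muscle was not tested. Without the libraries of another profile the difference in mmu-miR-486a-5p was 1.11 ± 0.32 (adjusted p = 0.0509), and it did not pass without VGC mouse 11 or FL mouse 11 (adjusted p from 0.0109 to 0.125 over libraries left out in turn). The thymus libraries of VGC mouse 11 and HGC mouse 11 had a heart profile. In LAR thymus mmu-miR-486a-5p gave 0.81 ± 0.33 (adjusted p = 0.156), and passed without the libraries of another profile (1.01 ± 0.35, adjusted p = 0.0402). There miR-451a passed too (0.56 ± 0.19, edgeR, adjusted p = 0.0339). In TERM without those libraries, MAT held the call of mmu-miR-486a-5p instead (log2 difference 2.54). That fit left out 9 of 10 FL and 9 of 10 VGC libraries of MAT.

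LAR and TERM differ in the day of collection, the anaesthesia, the freezing and the dissection. FL mice of LAR also flew longer and returned to Earth alive. HGC was matched to their crowded return housing, and the LAR ground controls were transported before dissection. These differences cannot be told apart. With arm as a term, 5 of 52 tests of members passed (1 higher and 4 lower in LAR), against 9.63% of all tests, with 13 at an unadjusted p under 0.05.

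Heart held 3 of these. miR-451a was 21415 to 273715 CPM in LAR heart (median 38629, n = 22) and 23761 to 221598 in TERM heart (median 105888, n = 28). The arm medians were 33671, 54296 and 37835 in LAR for FL, HGC and VGC, and 100745, 109672 and 120617 in TERM, so each TERM arm lay above each LAR arm in its median while single libraries overlapped. The log2 differences of LAR against TERM were -1.09 ± 0.23 for miR-451a, -1.32 ± 0.28 for mmu-miR-144-3p and -1.27 ± 0.27 for mmu-miR-144-5p (edgeR, adjusted p = 0.00272 for each), in a fit that called 3.72% of all miRNAs. mmu-miR-486a-5p gave -0.47 ± 0.29 and was not called. The 3 calls held in all 50 fits that left out 1 library and in each other fit tried, where they ranged from -1.64 to -0.93; without the 10 heart libraries of another profile they were -0.97, -1.10 and -1.09. Of 4 white blood cell miRNAs 2 were called lower in LAR, miR-142a-3p by -2.34 and miR-142a-5p by -2.13, and of 9 other red cell rich miRNAs 1, miR-16-5p, was called lower, by -0.70. The part of either in the result was not tested.

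**Figure D5:**
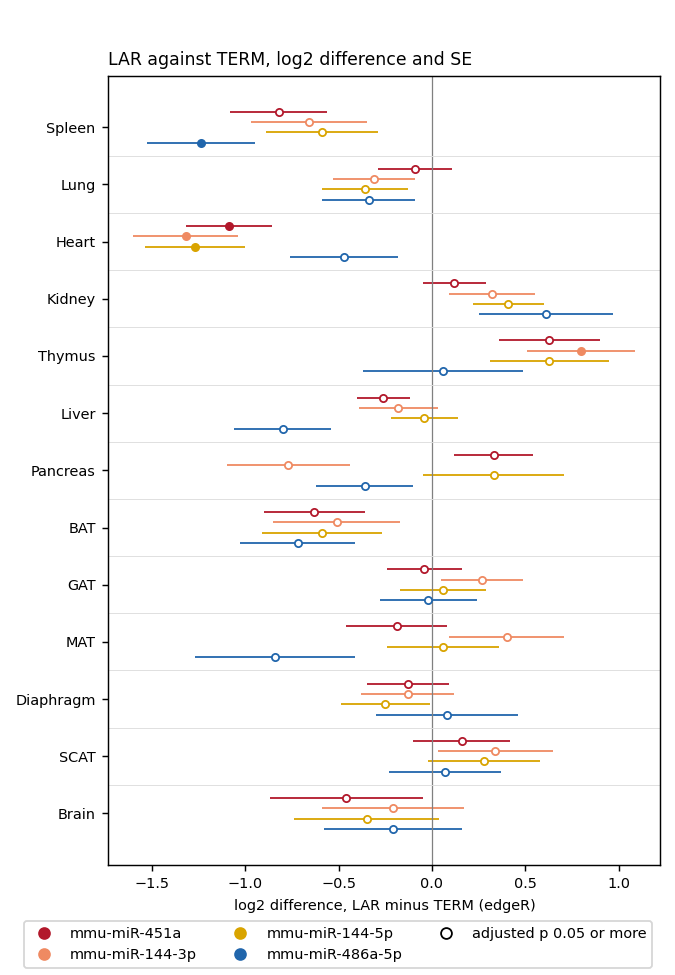
Log2 difference between LAR and TERM with its standard error (bars, edgeR, arm as a term) for each member in each tissue; filled points have an adjusted p under 0.05. miR-451a and both arms of miR-144 in heart and mmu-miR-486a-5p in spleen lie below 0, and mmu-miR-144-3p in thymus lies above 0.

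In spleen mmu-miR-486a-5p was 10.3 to 148 CPM in LAR (median 59.7, n = 21) and 25.0 to 641 in TERM (median 107, n = 26). LAR was lower in its median and the sets overlapped. The log2 difference was -1.24 ± 0.29 (edgeR, adjusted p = 0.0113; 1.31% of all miRNAs called in that fit), it held without each library in turn, and it did not pass with plate as a term (-1.48 ± 0.38, adjusted p = 0.0529). miR-451a gave -0.82 ± 0.26 (adjusted p = 0.0961) and passed without the 7 spleen libraries of another profile (-0.91 ± 0.23, adjusted p = 0.0131). White blood cell miRNAs had a median log2 difference of 0.23 in that fit, with 0 of 4 called.

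In thymus the difference ran the other way, with mmu-miR-144-3p at a median of 300 CPM in LAR (91.0 to 2594, n = 30) and 173 in TERM (30.6 to 492, n = 28), and a log2 difference of 0.80 ± 0.29 (edgeR, adjusted p = 0.0475; 17.6% of all miRNAs called in that fit). This call lay at the threshold and was lost in 34 of 58 fits that left out 1 library. Of the 7 main and alternative fits it passed in 4, with log2 differences of 0.58 to 0.80 (edgeR or DESeq2, adjusted p from 0.00287 to 0.0613). Without the 9 thymus libraries of another profile all 4 members passed, in a fit that called 52.5% of all miRNAs, at 0.96 ± 0.21 for miR-451a, 0.77 ± 0.21 for mmu-miR-144-3p, 0.77 ± 0.25 for mmu-miR-144-5p and 1.5 ± 0.28 for mmu-miR-486a-5p (adjusted p from 3.2e-05 to 0.00908). Of the 9 other red cell rich miRNAs 3 were called lower in LAR thymus, miR-15a-5p by -0.44, miR-15b-5p by -0.70 and miR-25-3p by -0.57, the opposite direction to mmu-miR-144-3p. Over LAR tissues miR-15b-5p did not follow miR-451a, with a median of 7946 CPM in thymus and 1078 in liver. Among other cells, the lymphocyte miRNA miR-150-5p was called higher by 0.94 and the muscle miRNA miR-499-5p lower by -4.26; their part in the result was not tested.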

How the data were processed

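Small RNA libraries were prepared and pooled by the authors and sequenced by BGI in Hong Kong. The authors mapped reads to GRCm39 and miRBase with miRMaster. The deposited miRNA values are estimated counts without normalization, 0.79% of which carry a fraction (0 of the members'). They were rounded for edgeR 4.0.16 and DESeq2 1.42.0. Levels are CPM (counts-per-million of miRNA counts), and log2 levels add 1. The main test was the edgeR quasi-likelihood test with TMM factors and filterByExpr, adjusted by Benjamini-Hochberg over all miRNAs of a fit, with 1 fit per tissue and extraction over the 3 arms; age and LAR against TERM had arm as a term. It was tested on simulated data. P-values for neighbours and correlations are from permutation tests with 100000 resamples, 1e-05 being the smallest they can give. Intervals of counting error do not cover PCR duplicates, as reads carry no molecular identifiers.

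Mouse numbers shared between arms are different animals: over 653 same-numbered pairs the median correlation of deviations was 0.01, with 264 above 0.1, so the numbers did not pair the arms. In the fit across LAR tissues the mouse was a true block and the calls stayed at 40. Named miRNAs were the members, the other rows of their precursors, the 5 most like each member over LAR tissue medians among miRNAs with a median of at least 10 CPM in a tissue, and marker lists. The members and lists were chosen with earlier results of these data known. Alternatives were DESeq2, other factors and filters, robust estimation, age or plate as a term, blocks, a rank-sum test, and fits without libraries of another profile or their pools. Hairpins were folded with RNAfold 2.7.2. The 7 other tables of RNA classes were not used here.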

Additional observations from a re-analysis of the deposited data

Results flagged for a closer look

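Values of 1 member in 1 arm (4 to 10 libraries) were tested in brain, heart and spleen, and in LAR SCAT for mmu-miR-486a-5p and LAR BAT for mmu-miR-144-3p. Of these 78 sets, Dixon's test found 20 in which 1 library, always the highest, stood apart from the rest. About 1 in 20 would do so by chance if the sets were independent, but the members share libraries.

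In LAR brain, 2 libraries were high in the cluster. HGC mouse 1 had 7713 CPM of miR-451a, 54.3 of mmu-miR-144-3p and 6.75 of mmu-miR-144-5p. VGC mouse 5 had 15840 of miR-451a, 109 of mmu-miR-144-3p, 10.9 of mmu-miR-144-5p and 42.3 of mmu-miR-486a-5p. Both matched the brain profile.

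In heart, HGC mouse 16 of LAR had 273715 of miR-451a, 1348 of mmu-miR-144-3p and 282 of mmu-miR-144-5p, each far above the next HGC heart. VGC mouse 19 of LAR had 618 of mmu-miR-144-3p, HGC mouse 11 of TERM 884 of mmu-miR-486a-5p and VGC mouse 3 of TERM 522 of mmu-miR-486a-5p. VGC mouse 12 of TERM had 2963 of mmu-miR-144-3p and carried a spleen profile.

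In LAR BAT, mmu-miR-144-3p was 3082 in FL mouse 2, with a spleen profile, 713 in HGC mouse 16 and 353 in VGC mouse 2, which both matched the BAT profile. In LAR SCAT, mmu-miR-486a-5p was 668 in HGC mouse 11, with a diaphragm profile, and 258 in VGC mouse 12, with a spleen profile. In LAR spleen, HGC mouse 13 had 3429 of mmu-miR-144-3p and matched the spleen profile. All values are in CPM. Of the 20, 4 came from libraries that resembled another tissue.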

How the results depend on the processing

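Of the values called in the main edgeR fits and followed through the alternatives, none changed sign. In the tests of each tissue against the others, those followed lay in brain, spleen, heart, diaphragm, liver, lung and SCAT. A rank-sum test called mmu-miR-144-5p higher in FL than HGC in LAR SCAT (0.54), where edgeR gave -0.19 and no call. Leaving out each library in turn moved mmu-miR-486a-5p in LAR heart, FL against HGC, from -0.45 to between -0.65 and 0.20 (without HGC mouse 16), with no call. The count of members called for FL against HGC in LAR was 1, and became 3 with DESeq2 and 0 with the mouse number as a replicate block, with plate as a term, without libraries of another profile and without their pools. FL against VGC in LAR went from 0 to 3 without those pools (miR-451a and mmu-miR-486a-5p in spleen, mmu-miR-486a-5p in kidney), and HGC against VGC in LAR from 0 to 2 with DESeq2. Age went in LAR from 0 to 2 without libraries of another profile and to 2 without their pools, and in TERM from 1 to 2 with DESeq2 and to 2 without the pools. LAR against TERM went from 5 to 8 with DESeq2, to 9 without libraries of another profile and to 11 without their pools. Neighbouring tissues that differed went from 10 to 16 without libraries of another profile. This last alternative, plate as a term in LAR against TERM, and leaving out each library in turn in LAR against TERM, in SCAT and heart for FL against HGC in LAR and in TERM thymus were chosen after seeing the data. Leaving out each library in turn gave 0 to 2 calls for age in TERM, 0 to 1 for FL against HGC in LAR, 0 to 0 in TERM and 4 to 7 for LAR against TERM. Of the other counts, 85 stayed within 1.5 times. The replicate block changed no other call of FL, HGC or VGC. Levels and rank-sum tests over all 7 RNA classes were not run. Age as a term in LAR brain and TERM pancreas, age in LAR MAT without libraries of another profile, and the mouse block across TERM tissues could not be fitted. Depth limits mmu-miR-144-5p and mmu-miR-486a-5p, with medians of 83.5 and 187 counts per library.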
